A study of Mus musculus with 28 samples.

Results

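Adrenomedullin 2 (Adm2), a secreted peptide hormone of the calcitonin gene-related peptide (CGRP) family, was followed through skin wound healing in mice together with 9 genes of the amino acid stress response: Atf4, Ddit3, Trib3, Chac1, Asns, Psat1, Phgdh, Sesn2 and Slc7a11. These 10 genes were chosen by name out of 29068 genes in the table of raw counts, and all 10 passed the filter on low counts, as did 18107 genes in all. Adm2 was included because its level was higher on every wound day than on day 0, so its values against day 0 are given as a description and without a test. Total RNA came from skin of wild-type MLKL+/+ mice on a C57BL/6J background, 8 weeks old and of both sexes, that healed naturally after a 6-mm punch excision of the dorsal skin. On the days of collection that the study's methods list, the whole wound site was taken, scab and epithelial margins included. In all, 28 libraries were sequenced, 4 each on days 0, 3, 5, 7, 10, 12 and 14. The labels treat day 0 as the control, whereas the study's methods name day 1 as the earliest day of collection, and the labels' name is kept here. The study counts the day of the injury as day 1, and its methods do not describe a day 0 sample. The series' design text states 5 repeats a day, of which 4 were analysed here. Nothing in the sources used here ties a library to an animal, so all P-values measure the spread between these samples, which may be technical.

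The amino acid stress response is a branch of the integrated stress response. When amino acids run short, or when misfolded proteins, heme shortage or viral RNA activate their own sensors, a kinase phosphorylates the translation factor eIF2 alpha, most protein synthesis slows, and the mRNA of the transcription factor ATF4 is translated more. ATF4 protein, often paired with a C/EBP protein, then binds the genes of amino acid synthesis, amino acid import and glutathione turnover. ATF4 output is regulated largely at translation, which a table of RNA counts does not measure. Healing skin passes through inflammation, the spread of epidermis over the wound bed, matrix deposition and remodelling, and its cell makeup changes throughout.

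The promoters of the 10 genes were searched for short DNA motifs of stress responses. The core of the C/EBP-ATF response element, searched on both strands as TGATGNAA, occurred in the RefSeq promoter windows (250 bases before to 50 after the start of transcription, build GRCm38.p6) of Slc7a11, Chac1, Asns and Trib3. That is 4 of the 10 genes, whereas 4.51% of 27025 genes and 3.97% of 32851 promoter windows held a match. All but Adm2 were chosen by name as genes of this response, so the difference in share is a description and no test. The core of the antioxidant response element, TGACNNNGC, occurred in the windows of Phgdh, Sesn2 and Asns, and in 14% of all genes (12.4% of all windows). Neither motif was found in the windows of Adm2, Atf4, Ddit3 or Psat1, which says only that these letters are not in those 300 bases. The stretches around the first motif are shown for Slc7a11, the gene with the largest rise in the wound, for Chac1, the gene with the largest fall, and for Asns, which is ordinarily induced by ATF4. Each is written 5′ to 3′ on the strand of its gene, with the bases that match TGATGNAA, or its reverse complement TTNCATCA, in capitals.
Slc7a11: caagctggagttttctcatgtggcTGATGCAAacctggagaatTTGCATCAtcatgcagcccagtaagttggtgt
Chac1: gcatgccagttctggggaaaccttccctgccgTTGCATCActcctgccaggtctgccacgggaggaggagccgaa
Asns: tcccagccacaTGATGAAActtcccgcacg
The Slc7a11 stretch lay at chr3:50443629-50443703 on the minus strand, from 90 to 16 bases before the start, and held the motif on both strands. The Chac1 stretch lay at chr2:119351017-119351091 on the plus strand, from 225 to 151 bases before the start. The Asns stretch lay at chr6:7693214-7693243 on the minus strand, from 34 to 5 bases before the start. A match is a description of letters and shows no binding. Slc7a11 and Chac1, which share the same 8 letters, moved in opposite directions from day 0 to days 3, 5 and 10, and both fell from day 7 to 10.

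The libraries held between 36706513 and 40655764 counts each, with a median of 39499595. Replicates agreed closely on the wound days, with a biological coefficient of variation of 5.70% to 10.8%, and less so on day 0, where it was 26.4%. Every marker of basal keratinocytes, fibroblasts and the other expected cell types of skin had counts in the series, which was not checked day by day. The 4 day 0 libraries fell into pairs by some of the marker sums. Replicates 1 and 4 held summed basal keratinocyte markers of 5906 and 6725 CPM (read counts scaled to library size and composition), against 2965 and 3056 in replicates 2 and 3, and skeletal muscle markers of 27393 and 29736 against 16730 and 17035. Fibroblast markers went the other way, at 25002 and 14286 CPM in replicates 1 and 4 and 55970 and 53733 in replicates 2 and 3. Other sums did not show these pairs. Hair follicle markers were at 2075 and 247 CPM in replicates 1 and 4 and 710 and 670 in replicates 2 and 3. Wound edge keratinocyte markers set only replicate 1 apart, and macrophage markers only replicate 4. Results of the 9 genes against day 0 that lost or gained a call, or moved by more than 1.5 times while called, without either pair are given below with and without it, and the listed genes named further on were not refitted without them. All 6 comparisons with day 0 share these 4 libraries and are therefore not independent of each other. The edgeR fit pools the spread over all 7 days, so its SE and p against day 0 also rest on the tighter wound days.

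Adm2 was close to undetected on day 0 and was counted in every wound library. The gene lies at chr15:89322720-89324731 on the plus strand (mm10, GENCODE M21) and overlaps no other annotated gene. On day 0 its raw read counts were 2, 0, 3 and 2 in replicates 1 to 4, out of the library totals given above. They were 14, 15, 21 and 21 on day 3, and 19, 15, 30 and 16 on day 5. All 8 of these libraries lay well above every day 0 library.

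On day 7 the Adm2 counts were 9, 20, 20 and 19. They were 14, 4, 7 and 11 on day 10, and 6, 16, 6 and 6 on day 12. The lowest wound library, day 10 replicate 2, had 4 counts (0.0991 CPM), next to 3 counts (0.0778 CPM) in the highest day 0 library. Day 14 had the highest mean, with counts of 31, 26, 37 and 9.

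Summed over the 4 libraries and scaled to library size, Adm2 was 10.5-fold its day 0 level on day 3, with a 95% exact counting interval of 4.84 to 27.1. For days 5, 7, 10, 12 and 14 this ratio was 11.5 (5.32 to 29.5), 9.43 (4.34 to 24.3), 4.90 (2.15 to 13.1), 4.24 (1.85 to 11.3) and 13.5 (6.31 to 34.3). The day 0 side of each ratio rests on 7 counts in all, and these intervals cover counting error only, not the spread between libraries. Adm2 was chosen for being higher than on day 0, so the intervals are no test of that difference. No wound library overlapped the day 0 libraries on any day, which is the pattern Adm2 was chosen for. Of the 18107 genes tested, 514 (2.84%) were likewise higher in all 24 wound libraries. In tissue RNA, more cells that contain Adm2 RNA cannot be told apart from more Adm2 RNA in each cell.

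**Figure D1:**
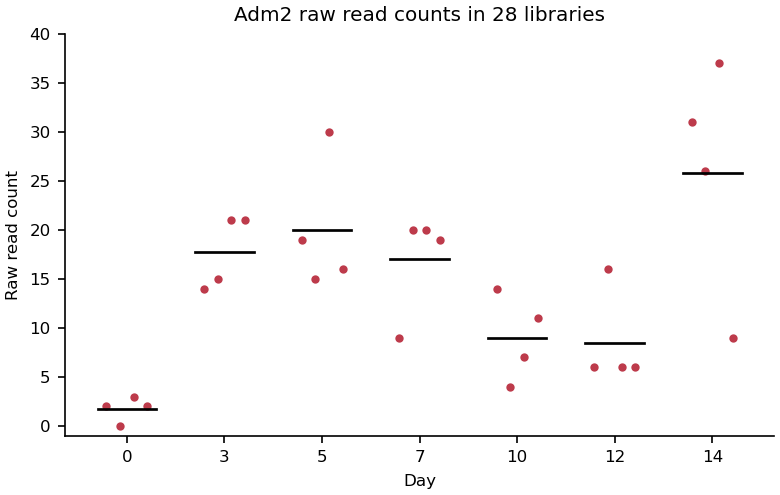
Raw read counts of Adm2 (y axis) in the 4 libraries of each day (x axis, days 0 to 14). Points are libraries and bars are the means of 4 libraries. Day 0 lies at 0 to 3 counts, and the wound libraries lie between 4 on day 10 and 37 on day 14.

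Within the wound the level of Adm2 changed between days. In descending order, days 14, 5, 3, 7, 10 and 12 averaged 0.623 ± 0.297, 0.528 ± 0.180, 0.485 ± 0.107, 0.434 ± 0.135, 0.226 ± 0.110 and 0.194 ± 0.112 CPM (SD, n = 4 each). Each neighbour in this order overlapped the next, and only day 12 and day 0 (0.0466 ± 0.0330 CPM) at its lower end did not. The 6 wound days did not share a single mean in edgeR's quasi-likelihood test (F = 4.31, adjusted p = 0.00694), a test that 85.1% of all genes passed. Between successive days only the rise from day 12 to day 14 passed the test, by 1.66 ± 0.45 (SE) on the log2 scale (edgeR, adjusted p = 0.00386). In that rise 3 of 4 day 14 libraries lay above all of day 12, and the exact two-sided permutation test of these 8 libraries gave p = 0.0571. The drop from day 7 to day 10 was 0.524-fold and did not pass (edgeR, adjusted p = 0.127).

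The other 9 genes did not move together. Against day 0, 4 of 9 rose and 3 fell on day 3 at an adjusted p under 0.05, when 31.8% and 34.8% of all genes did. Day 5 again had 4 that rose and 3 that fell (29% and 30.6% of all genes), and day 7 had 3 and 4 (25.6% and 24.8%). By day 10 only 2 rose and 2 fell (23.5% and 26.9%). Day 12 had a single gene that rose and 5 that fell (21.7% and 25.6%), and day 14 had 3 and 4 (28.2% and 34.5%). Libraries that did not overlap those of day 0 were counted in the same way. Higher and lower, they were found for 5 and 3 genes at day 3 (28.2% and 28.6% of all genes), 3 and 3 at day 5 (23% and 23.2%), 3 and 3 at day 7 (19.9% and 19.3%), 2 and 2 at day 10 (19.5% and 21.9%), 1 and 2 at day 12 (18.6% and 20.2%) and 3 and 1 at day 14 (23.4% and 27.3%).

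The median log2 fold change of the 9 genes stayed near 0, from -0.23 on day 12 to 0.23 on day 5, beside -0.037 and -0.024 for all genes on the same days. Leaving out the correction for library composition moved the median of all genes by 0.143 on day 12 and 0.126 on day 14. The split of the members' calls then became 2 higher and 0 lower on day 12, and 4 higher and 3 lower on day 14. By the study's own criteria, a log2 fold change over 1.5 with an unadjusted P under 0.05, Slc7a11 was higher on every day and Chac1 lower on days 5 and 10. Without day 0 replicates 1 and 4 the day 5 value of Chac1 (-1.26) was within that limit of 1.5, and without replicates 2 and 3 its day 3 value (-1.79) was beyond it. Over days 3, 5, 7, 10, 12 and 14 these criteria put 6.5%, 5.61%, 4.66%, 4.33%, 3.89% and 5.15% of all genes higher, and 12.4%, 8.31%, 4.74%, 5.14%, 3.51% and 8.83% lower.

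**Figure D2:**
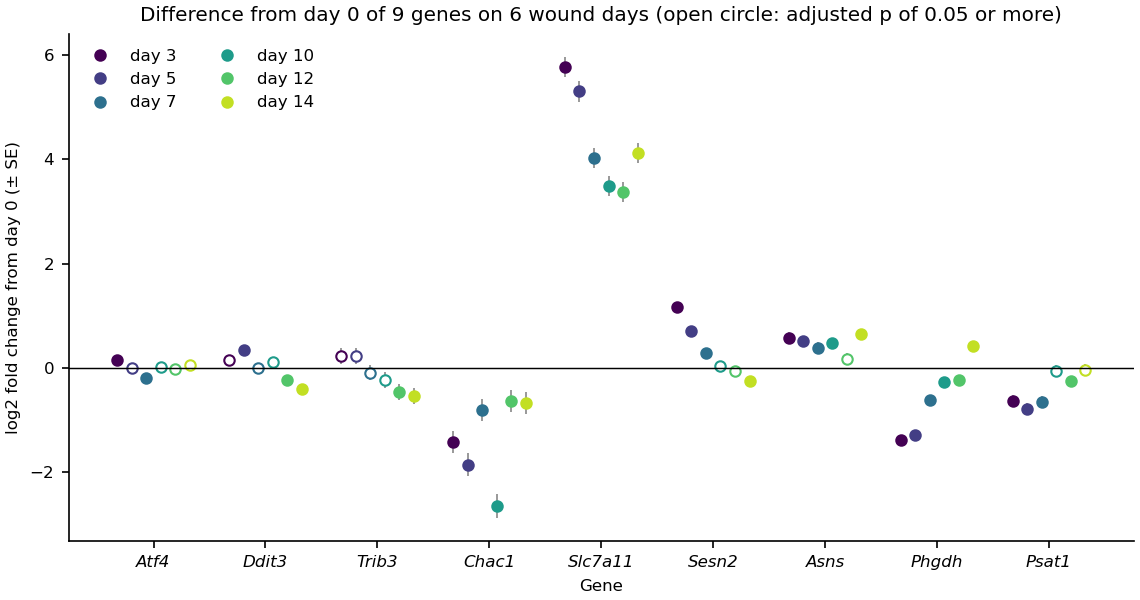
Difference of 9 genes (x axis) from day 0 as log2 fold change (y axis, edgeR), 1 point for each of 6 wound days, with the standard error as a bar. Filled points have an adjusted p under 0.05. Slc7a11 lies between 3.37 and 5.77 and Chac1 between -2.64 and -0.64, while Atf4 stays within -0.20 and 0.15.

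Levels between genes were compared on the FPKM scale, which divides by gene length. On day 0 Atf4 had by far the highest mean level at 115 FPKM, followed by Psat1 at 48.8 and Phgdh at 34.2. Chac1 (13.5) and Asns (12.7) came next, then Ddit3 (5.78), Sesn2 (5.47) and Trib3 (2.64). Slc7a11 was at 0.149 FPKM and Adm2 at 0.0351. By day 3 Slc7a11 had reached 7.83 FPKM and passed Chac1 at 4.87, whereas Adm2 stayed the lowest of the 10 genes at 0.350.

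Slc7a11 showed by far the largest change of the group. It encodes xCT, the subunit of the plasma membrane exchanger that brings cystine into the cell for glutathione synthesis in return for glutamate. Its raw counts on day 0 were 65, 48, 27 and 76. They were 2703, 2692, 2912 and 3154 on day 3, and 2410, 2126, 2319 and 1702 on day 5. Every wound library lay above the day 0 range. The Slc7a11 locus overlaps 5 other annotated genes, Gm37692 and Gm37498 on the same strand among them. How the counting treated such reads is not given in the sources used here.

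The Slc7a11 counts then fell to 917, 1084, 840 and 830 on day 7. They were 554, 720, 737 and 548 on day 10, and 550, 651, 595 and 776 on day 12. On day 14 they were back at 1114, 1149, 944 and 921. The time course thus had a peak on day 3, a trough on days 10 and 12, whose libraries overlapped, and a second, smaller rise.

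Against day 0 Slc7a11 was 54.7-fold higher on day 3 (log2 fold change 5.77 ± 0.20 SE, edgeR, adjusted p = 1.61e-19). Over days 5, 7, 10, 12 and 14 the excess was 39.5-, 16.4-, 11.2-, 10.3- and 17.4-fold, with an adjusted p of at most 1.96e-13. As log2 fold changes, the day 3 value was 6.35 without day 0 replicates 1 and 4 and 5.40 without replicates 2 and 3, and all 6 days kept their call without either pair. On each day all 4 libraries lay above all of day 0, the most extreme split of 8 libraries (exact two-sided permutation test, p = 0.0286, the smallest it can give). Between wound days the level fell from day 3 to 5 (log2 fold change -0.47, edgeR, adjusted p = 0.0171), from day 5 to 7 (-1.27, adjusted p = 1.4e-07) and from day 7 to 10 (-0.55, adjusted p = 0.00599). Without day 5 replicate 4, the lowest of its day, the first of these gave an adjusted p of 0.0615. It rose again from day 12 to 14 (0.75, edgeR, adjusted p = 0.00019).

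Neutrophil markers also peaked on day 3. Over the 7 days the sum of 6 neutrophil markers had medians of 27.5, 4506, 1808, 720, 235, 20.7 and 16.5 CPM. Macrophage markers went from 1458 CPM on day 0 to 2631 on day 3 and 385 on day 14. On day 14 both medians were therefore below those of day 0, whereas Slc7a11 was 17.4-fold above it. Wound edge keratinocyte markers (Krt6a, Krt6b, Krt16 and Krt17), which also peaked on day 3 and were higher on day 14 than on day 12, had summed medians of 476, 2499, 2021, 1581, 1386, 939 and 1559 CPM over the 7 days. All 4 of them had counts in the series. The part of these cells in the level of Slc7a11 was not tested.

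Chac1 moved the opposite way. It encodes a gamma-glutamylcyclotransferase that degrades glutathione in the cytosol, and it is a well-known target of ATF4. Its raw counts were 1264, 601, 524 and 888 on day 0, and 283, 362, 308 and 240 on day 3. They were 198, 262, 191 and 255 on day 5, and 499, 650, 380 and 416 on day 7. The day 0 libraries were thus spread over a wide range, with replicates 1 and 4 above 2 and 3.

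On day 10 Chac1 reached its lowest counts, 127, 140, 145 and 141. They returned to 457, 745, 542 and 686 on day 12, and 517, 664, 536 and 549 on day 14. None of the day 10 libraries overlapped those of day 7 or day 12.

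Chac1 fell by 62.5% from day 0 to day 3 (log2 fold change -1.42 ± 0.22 SE, edgeR, adjusted p = 1.73e-06), by 72.4% to day 5 (-1.86, adjusted p = 3.27e-08) and by 84% to day 10 (-2.64, adjusted p = 2.21e-10). On these 3 days all wound libraries lay below all day 0 libraries. The differences on these days without day 0 replicates 1 and 4 were -0.82, -1.26 and -2.05 (edgeR, adjusted p of at most 0.000149), and without replicates 2 and 3 they were -1.79, -2.26 and -3.06. It was also lower on day 7 (log2 fold change -0.80, edgeR, adjusted p = 0.00217), day 12 (-0.64, adjusted p = 0.0129) and day 14 (-0.67, adjusted p = 0.00663), but there the libraries overlapped those of day 0. Without day 0 replicates 1 and 4 these differences were -0.21, -0.044 and -0.075 and did not pass (edgeR, adjusted p = 0.343, 0.857 and 0.73), and without replicates 2 and 3 they were -1.23, -1.04 and -1.01. Leaving out day 0 replicate 1 alone also ended the calls on day 12 (-0.34, adjusted p = 0.145) and day 14 (-0.31, adjusted p = 0.16), and so did leaving out the composition correction on day 12 (-0.49, adjusted p = 0.0516) or day 12 replicate 1 (-0.53, adjusted p = 0.0533).

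The steps of Chac1 between wound days do not involve day 0. From day 5 to 7 it rose 2.07-fold (log2 fold change 1.05 ± 0.22 SE, edgeR, adjusted p = 0.000485). It then fell to 0.279-fold by day 10 (-1.84, adjusted p = 3.85e-07), and rose 4.01-fold to day 12 (2.00, adjusted p = 4.66e-08). In each of the 3 steps the 4 libraries of a day were separated from the 4 of the other. Days 12 and 14 did not pass a test against each other (0.979-fold, edgeR, adjusted p = 0.919).

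Hair follicle markers went up and down on the same days. Over the 7 days their sum had medians of 690, 58.9, 56.8, 1559, 280, 4748 and 3806 CPM. All 6 markers had counts in the series. On days 12 and 14 the sum was higher than on day 0, and Chac1 was not. On day 10 the sum was above that of days 3 and 5, whereas Chac1 was lower (mean 3.47 against 8.13 and 6.00 CPM). Within day 0, replicate 4 had the lowest sum, 247 CPM against 710 and 670 in replicates 2 and 3. Chac1 was higher in that library, at 24.7 CPM against 15.2 and 13.6. The part of hair follicle content in these levels was not tested.

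**Figure D3:**
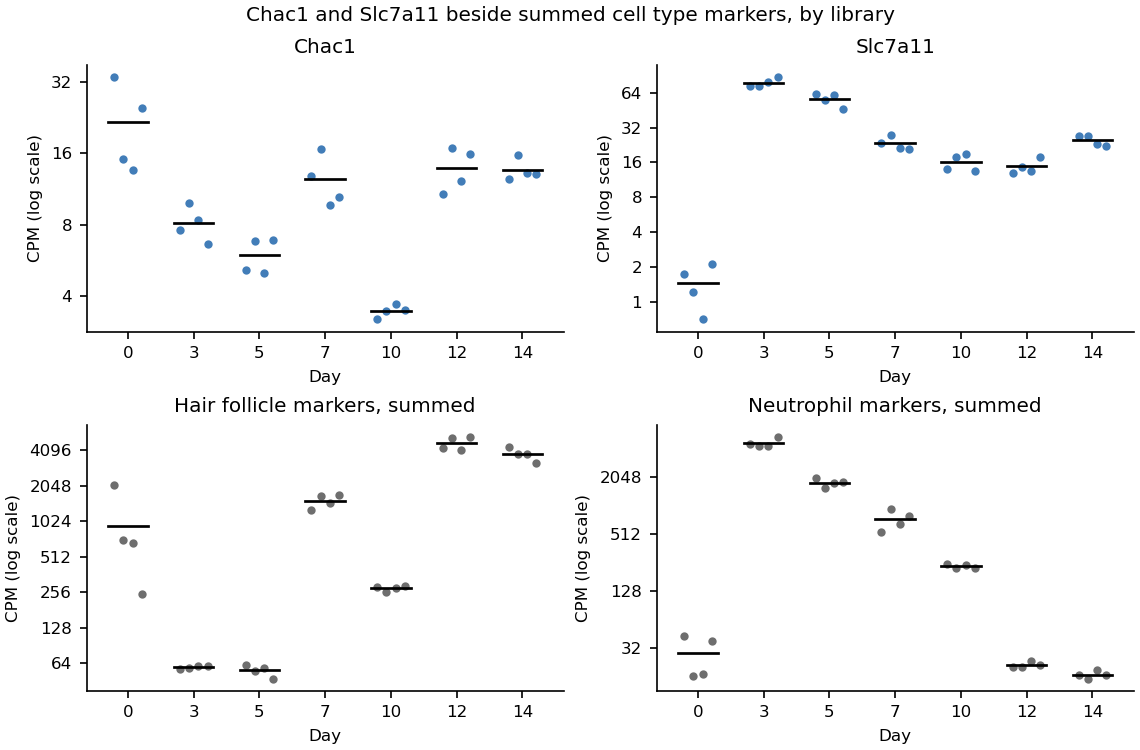
CPM on a log scale (y axes) of Chac1 and Slc7a11 (top) and summed CPM of 6 hair follicle and 6 neutrophil markers (bottom) by day (x axis). Points are libraries and bars are means of 4. Chac1 and the hair follicle sum are both low on days 3, 5 and 10, and the neutrophil sum falls from a median of 4506 on day 3 to 16.5 on day 14.

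Sesn2 rose early and then fell back until its libraries again overlapped those of day 0. Its product, Sestrin2, binds leucine and restrains the growth-promoting kinase mTORC1. The raw counts were 622, 536, 558 and 542 on day 0, and 1243, 1271, 1218 and 1179 on day 3. They were 976, 1006, 970 and 754 on day 5, and 731, 719, 655 and 754 on day 7. Libraries of days 3, 5 and 7 all lay above those of day 0. The neutrophil and macrophage marker sums also peaked on day 3, and the neutrophil medians given above fell at each later day. The part of these cells in the level of Sesn2 was not tested.

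Afterwards the Sesn2 counts spanned 539 to 673, 552 to 668 and 488 to 570 (days 10, 12 and 14), and overlapped day 0 each time. The gene was 2.25-fold higher on day 3 (log2 fold change 1.17 ± 0.09 SE, edgeR, adjusted p = 2.09e-12). The excess was 1.64-fold by day 5 (adjusted p = 4.14e-08) and 1.23-fold by day 7 (adjusted p = 0.00544). The day 7 rise did not pass without day 0 replicates 2 and 3 (adjusted p = 0.0836). It fell from day 3 to 5 (log2 fold change -0.45, edgeR, adjusted p = 0.000193), from day 5 to 7 (-0.42, adjusted p = 0.000352) and from day 7 to 10 (-0.25, adjusted p = 0.0245). The last of these steps was lost when any of 5 single libraries was left out, without composition correction (adjusted p = 0.0651), with no filter (0.069) and in 3 limma fits (0.0515 to 0.0603). On day 14 it was 0.845-fold of day 0 (edgeR, adjusted p = 0.0171), a call that was lost without composition correction (log2 fold change -0.12, adjusted p = 0.237) or without day 0 replicate 1 (-0.11, adjusted p = 0.281), 3 or 4 or day 14 replicate 2 or 4. It was -0.15 without day 0 replicates 1 and 4 (adjusted p = 0.199). Gm12981, annotated on the same strand, overlaps the Sesn2 locus, and how the counting treated such reads is not given in the sources used here.

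Sestrin relatives did not share this course. Sesn1 was lower on day 3 (log2 fold change -0.28, edgeR, adjusted p = 1.4e-05) and lower again on day 14 (-0.58, adjusted p = 5.4e-11). Sesn3 was lower on day 3 (-0.46, adjusted p = 0.017) and higher on day 14 (0.58, adjusted p = 0.0029).

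Atf4 and Ddit3, transcription factors of the response, changed by at most 27.8% against day 0. Atf4, the central activator, had raw counts between 6487 on day 7 and 9310 on day 14. On day 0 they were 7698, 8183, 7897 and 7128, and on day 3 they were 8385, 8099, 8047 and 8445. On day 7 they were 6487, 6959, 6769 and 7527. Scaled to library size, all 4 libraries of day 3 lay above day 0 and all 4 of day 7 below it.

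Atf4 was 10.6% above day 0 on day 3 (log2 fold change 0.15 ± 0.05 SE, edgeR, adjusted p = 0.0162) and 12.9% below it on day 7 (-0.20, adjusted p = 0.00238). The day 3 call was lost in 8 of the alternative analyses, upper quartile scaling (0.05, adjusted p = 0.421) and the fit without day 0 replicates 1 and 4 (0.13, adjusted p = 0.0708) among them. On days 5, 10, 12 and 14 the difference from day 0 lay between -0.02 and 0.06 and did not pass in this fit. The day 14 value was larger and passed without composition correction (0.19, adjusted p = 0.00418), with limma (0.19, adjusted p of at most 0.00332), without day 0 replicate 1 (0.14, adjusted p = 0.0432) and without day 0 replicates 2 and 3 (0.16, adjusted p = 0.0479). The drop from day 5 to 7 (-0.19, edgeR, adjusted p = 0.00623) was followed by a rise from day 7 to 10 (0.22, adjusted p = 0.00164). The drop was lost with upper quartile scaling (-0.14, adjusted p = 0.0709) and without composition correction (-0.15, adjusted p = 0.0505).

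Ddit3, which encodes CHOP, a transcription factor linked to cell death under prolonged endoplasmic reticulum stress, peaked on day 5. Its raw counts were 538, 600, 577 and 569 on day 0, and 731, 675, 694 and 806 on day 5. They were 517, 627, 576 and 519 on day 12, and 492, 517, 433 and 455 on day 14. Scaled to library size, day 5 lay above and days 12 and 14 below all of day 0. The day 3 difference did not pass, but did in 5 of 8 fits with a library left out. Ddit3 rose by 27.8% to day 5 (log2 fold change 0.35 ± 0.07 SE, edgeR, adjusted p = 0.00011) and fell from day 5 to 7 by 21.6% (adjusted p = 0.000389) and from day 10 to 12 by 21.1% (adjusted p = 0.000357). It was 24.1% below day 0 on day 14 (-0.40, adjusted p = 2.75e-05) and 14.6% below it on day 12 (-0.23, adjusted p = 0.0106), the latter lost without composition correction (-0.08, adjusted p = 0.376) without day 0 replicate 4 (-0.18, adjusted p = 0.0608) or without day 0 replicates 2 and 3 (-0.21, adjusted p = 0.0691). Ddit3 overlaps Mars, a tRNA synthetase gene on the opposite strand, and reads of these genes may not be separated in the overlap.

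Trib3 encodes a pseudokinase that is induced by ATF4 and CHOP and dampens them. Its raw counts were 232, 190, 276 and 147 on day 0, and spanned 210 to 261 (day 3) and 226 to 281 (day 5). They spanned 147 to 210 by day 12 and 144 to 171 by day 14. The difference on days 3 and 5 was 1.17-fold on both and did not pass (edgeR, adjusted p = 0.192 and 0.188), although it passed on both days without day 0 replicate 3 (0.0319 and 0.0354).

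Trib3 was lower than on day 0 on day 12 (log2 fold change -0.46 ± 0.15 SE, edgeR, adjusted p = 0.014) and day 14 (-0.54, adjusted p = 0.00299), with libraries that overlapped day 0. The day 12 call was lost without day 0 replicate 1 or 3 or day 12 replicate 2, and without composition correction (-0.32, adjusted p = 0.0805). Without day 0 replicate 3 the day 14 value was -0.35 (adjusted p = 0.047). Without day 0 replicates 2 and 3 neither call passed (edgeR, adjusted p = 0.127 and 0.0874). The related pseudokinase gene Trib1 was higher on day 3 (log2 fold change 1.38, edgeR, adjusted p = 8.4e-16) and on day 14 (0.62, adjusted p = 1.2e-08). Trib2 was lower on day 3 (-0.89, adjusted p = 2.1e-11) and higher on day 14 (0.38, adjusted p = 4e-05).

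The enzymes that make amino acids split. Asns, the enzyme that makes asparagine, rose. Its raw counts were 1420, 986, 937 and 1299 on day 0, and 1674, 1650, 1662 and 1760 on day 3. For days 5, 7, 10 and 12 they spanned 1418 to 1834, 1497 to 1671, 1607 to 1785 and 1446 to 1568. On day 14 they were 2121, 1909, 2153 and 1807, the highest mean of the course.

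Asns was 1.5-fold of day 0 on day 3 (log2 fold change 0.58 ± 0.10 SE, edgeR, adjusted p = 1.95e-05), and 1.43-, 1.31- and 1.39-fold over days 5, 7 and 10. By day 14 it was 1.57-fold (0.65, adjusted p = 4.6e-06). Day 12 did not pass (1.13-fold, adjusted p = 0.168), but did without composition correction (log2 fold change 0.32, adjusted p = 0.00992), without day 0 replicate 1 or 4 (adjusted p = 0.0148 and 0.0308) and without both (0.50, adjusted p = 1.41e-05). Without that pair the log2 fold changes on days 3, 5, 7 and 10 were 0.90, 0.84, 0.71 and 0.80. Without day 0 replicates 2 and 3 they were 0.37, 0.27, 0.12 and 0.21, and the day 7 call was lost (adjusted p = 0.235), as it was in a fit of the 8 libraries alone (adjusted p = 0.0637). The level fell from day 10 to 12 (-0.30, edgeR, adjusted p = 0.0237), a call lost without day 10 replicate 2 or 4 or day 12 replicate 3, without composition correction (adjusted p = 0.102) and in 3 limma fits (0.0947 to 0.113), and rose from day 12 to 14 (0.47, adjusted p = 0.000522). In that last rise all 4 day 14 libraries lay above all 4 of day 12, as they did for Slc7a11.

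Phgdh, which catalyses the entry step of serine synthesis from glucose, had a deep early drop and a late overshoot. Its raw counts were 2420, 2551, 2441 and 2536 on day 0. They were 989, 929, 941 and 848 on day 3, and 954, 1017, 959 and 1117 on day 5. They climbed to 1735, 1586, 1636 and 1725 on day 7. This was still below every day 0 library.

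On day 10 the Phgdh counts were 2199, 2155, 2053 and 2227, and on day 12 they were 2415, 2485, 2328 and 2527. On day 14 they were 3523, 3507, 4178 and 3331. Scaled to library size, all libraries of days 3 to 12 lay below day 0 and all of day 14 above it. Phgdh was 0.386-fold of day 0 on day 3 (log2 fold change -1.38 ± 0.07 SE, edgeR, adjusted p = 7.96e-16), and 0.409-, 0.651- and 0.826-fold over days 5, 7 and 10. By day 12 it was 0.855-fold (adjusted p = 0.00689). The day 12 call was lost without composition correction (-0.08, adjusted p = 0.295) and without day 0 replicates 1 and 4 (-0.19, adjusted p = 0.0518). On day 14 Phgdh was 1.34-fold of day 0 (0.42, edgeR, adjusted p = 4.47e-06). The rises from day 5 to 7 (0.67, adjusted p = 1.61e-08), from day 7 to 10 (0.34, adjusted p = 0.000257) and from day 12 to 14 (0.65, adjusted p = 1.42e-08) all separated the 4 libraries of each day.

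Psat1, which carries out the next step of serine synthesis, dropped early as well, and its later level relative to day 0 depended on which day 0 libraries were used. The pseudogene Gm3329 overlaps its locus on the opposite strand. The raw counts of Psat1 were 5206, 3978, 3595 and 5995 on day 0, again higher in replicates 1 and 4. For days 3, 5 and 7 they spanned 2749 to 3200, 2611 to 2845 and 3034 to 3151. These 12 libraries all lay below day 0. Counts for days 10, 12 and 14 spanned 4634 to 4908, 4420 to 4740 and 4724 to 5462, inside the range of day 0.

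Psat1 was 0.648-fold of day 0 on day 3 (log2 fold change -0.63 ± 0.11 SE, edgeR, adjusted p = 9.96e-06), and 0.580- and 0.640-fold over days 5 and 7. Without day 0 replicates 1 and 4 these drops were smaller, with log2 fold changes of -0.26, -0.42 and -0.28 (edgeR, adjusted p of at most 0.000596), and without replicates 2 and 3 they were -0.87, -1.06 and -0.93. Without day 0 replicate 4 alone the day 3 value was -0.40. It rose 1.5-fold from day 7 to 10 (0.59, edgeR, adjusted p = 8.96e-05). The day 12 value was a borderline call (-0.25, adjusted p = 0.0499), which was lost with the replicate number as a block (adjusted p = 0.0586), without composition correction (-0.11, adjusted p = 0.396), without any of 5 single libraries and without day 0 replicates 1 and 4 (0.11, adjusted p = 0.165), whereas it was -0.53 without replicates 2 and 3. On days 10 and 14 the difference from day 0 did not pass with all 4 libraries. Without replicates 1 and 4 both were rises that passed (0.31 and 0.33, edgeR, adjusted p = 0.000153 and 5.3e-05), and without replicates 2 and 3 both were drops that passed (-0.34 and -0.25, adjusted p = 0.000122 and 0.00247). Without replicate 4 alone the day 14 rise also passed (0.21, adjusted p = 0.0272). The difference in course between Psat1 and Phgdh was not tested. The sum of basal keratinocyte markers, which split the day 0 libraries the same way, had medians of 4481, 3490, 3254, 3132, 4191, 3344 and 4334 CPM over the 7 days. Its part in the level of Psat1 was not tested.

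**Figure D4:**
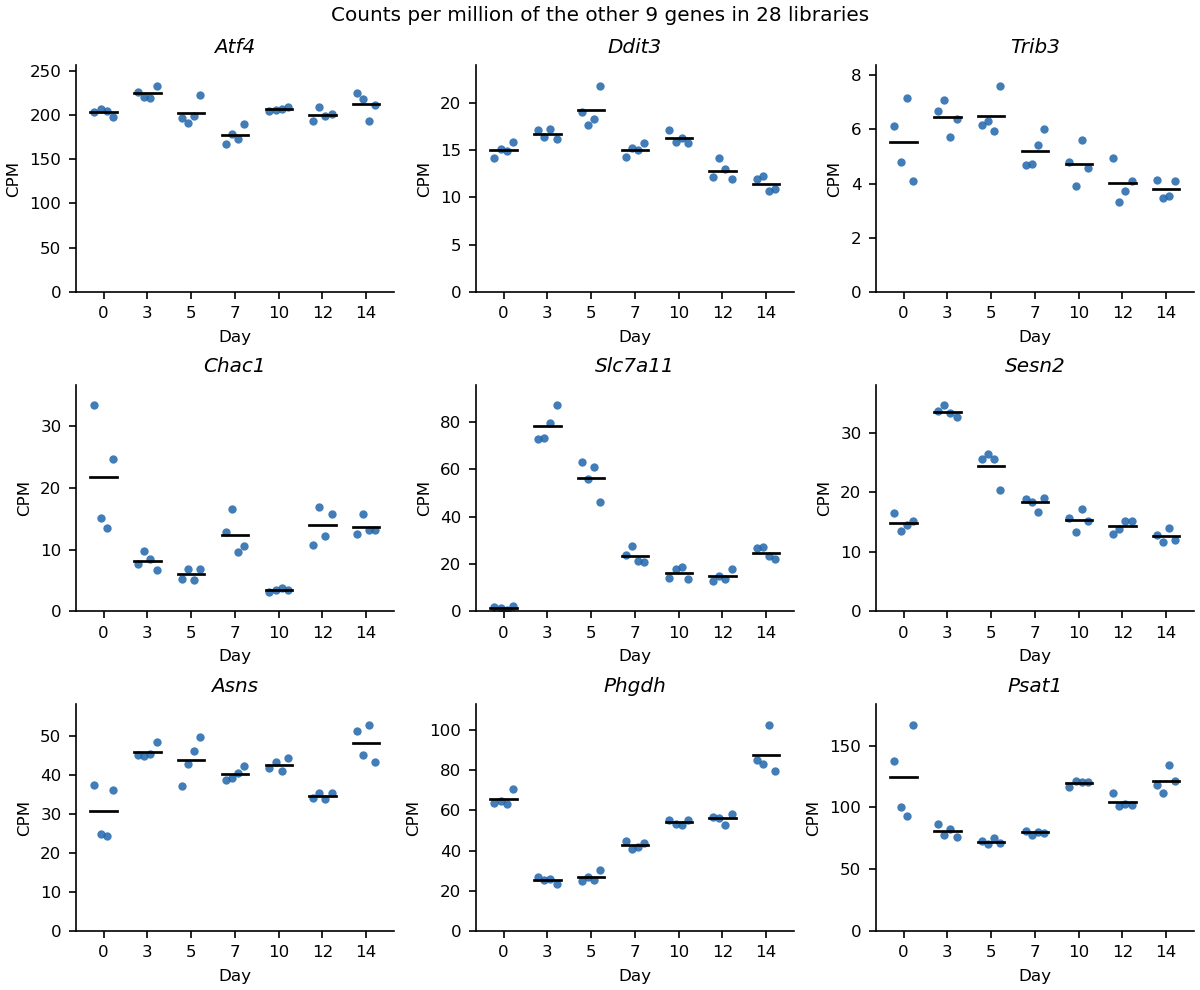
Level in CPM (y axes, each from 0) of the 9 genes other than Adm2 in the 4 libraries of each day (x axis). Points are libraries and bars are means of 4. Slc7a11, Sesn2 and Asns are higher on day 3 than on day 0, and Chac1, Phgdh and Psat1 are lower.

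Between successive wound days, 1 of the 10 genes rose (Ddit3) and 3 fell (Atf4, Sesn2 and Slc7a11) from day 3 to 5, when 12.9% and 11.4% of all genes did. The call of Ddit3 there was kept in 1 of 8 fits with a library left out and in 7 of 11 other settings, and that of Atf4 in 6 of 8 and 4 of 11. From day 5 to 7 it was 2 (Chac1 and Phgdh) and 4 (Atf4, Ddit3, Sesn2 and Slc7a11), beside 13.9% and 14.6%. From day 7 to 10 it was 3 (Atf4, Psat1 and Phgdh) and 3 (Chac1, Sesn2 and Slc7a11), beside 14.3% and 18%. From day 10 to 12 it was 1 (Chac1) and 2 (Ddit3 and Asns), beside 18.7% and 20.7%. From day 12 to 14 Adm2, Slc7a11, Asns and Phgdh rose and none fell, beside 19.9% and 25.3% of all genes. The joint test over the 6 wound days passed for all 10 genes, beside 85.1% of all genes. The ratio of the highest to the lowest day mean within the wound was 5.30 for Slc7a11, 4.02 for Chac1, 3.47 for Phgdh, 3.2 for Adm2 and 2.66 for Sesn2. It was 1.71 for Trib3, 1.68 for Ddit3 and for Psat1, 1.39 for Asns and 1.27 for Atf4.

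The time course of Adm2 over the 28 libraries was most like that of Slc7a11 and Asns among the other 9 genes. Pearson's r of log2 CPM with Adm2 was 0.80 for Slc7a11 and 0.77 for Asns, 0.39 for Sesn2, 0.10 for Ddit3, 0.077 for Atf4, 0.074 for Trib3, -0.29 for Chac1, -0.35 for Phgdh and -0.45 for Psat1. Of 14675 genes with a mean of at least 1 CPM, the 8 with the highest r were Nectin2 (0.86), Sephs2 (0.86), Marcksl1 (0.85), Sat1 (0.85), Letm1 (0.85), Gars (0.85), Acaa2 (0.84) and Prelid3b (0.84). These are descriptions over 28 libraries that share their days, and Adm2 was chosen for its difference from day 0. Gars, the glycyl-tRNA synthetase, had means of 112, 156, 176, 149 and 188 CPM for days 0, 3, 5, 12 and 14. Acaa2, an enzyme of fatty acid oxidation in mitochondria, had 121, 301, 339, 136 and 314 CPM for the same days.

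With the day means removed, none of the 9 genes had a correlation with Adm2 that passed a permutation test within days over 28 libraries. The highest was Asns, with Pearson's r = 0.33 (permutation p = 0.157, adjusted over 9 genes 0.728) and Spearman's rho = 0.40 (permutation p = 0.0667, adjusted 0.600). Without the 2 libraries farthest from the median of Adm2 the r of Asns was 0.13. Over the 24 libraries of the wound days alone it was 0.42 (permutation p = 0.0793, adjusted 0.714), with a rho of 0.48 (permutation p = 0.0410, adjusted 0.369). Adm2 counts lay between 0 and 37 in each library, and whether a relation within days could be detected at such counts was not tested.

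The peptide encoded by Adm2 acts on the calcitonin receptor-like receptor, Calcrl, joined with a partner protein of the RAMP family, the same receptors that serve adrenomedullin and CGRP. Of 7 other genes of this family tested, the numbers higher than day 0 were 2, 1, 0, 1, 0 and 0 over the 6 wound days, and those lower were 2, 3, 2, 3, 3 and 5, when 21.7% to 31.8% of all genes were higher and 24.8% to 34.8% lower. Without composition correction, 2 were lower on day 12. Adm, the gene of adrenomedullin itself, was far more abundant than Adm2, with 6.57 FPKM on day 0 and 18.5 on day 3. Its course differed from that of Adm2: it rose on day 3 (log2 fold change 1.55 ± 0.15 SE, edgeR, adjusted p = 3.8e-10) and day 5 (0.96, adjusted p = 2.5e-06) and fell below day 0 on day 14 (-1.29, adjusted p = 4.6e-08), when Adm2 had its highest mean. Adm counts were 973 to 1062 on day 3 and 128 to 209 on day 14, against 225 to 458 on day 0.

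Calcrl stayed near its day 0 level until day 10 and was lower on day 12 (log2 fold change -0.31, edgeR, adjusted p = 0.044) and day 14 (-1.13, adjusted p = 1.9e-08), with 592 to 775 counts on day 14 and 952 to 1753 on day 0. Ramp1, the partner that gives CGRP selectivity, was lower on all 6 days, from -2.22 ± 0.10 (SE) on day 3 (adjusted p = 2.8e-17) to -0.75 on day 12 (adjusted p = 1.1e-07), and no wound library overlapped day 0. Ramp2, the most abundant of the family at 48.1 FPKM on day 0, moved little, with its lowest difference at day 3 (-0.28, adjusted p = 0.0023) and its highest at day 10 (0.27, adjusted p = 0.0036). Ramp3 was higher on day 3 (0.72, edgeR, adjusted p = 0.022) and lower on day 14 (-1.0, adjusted p = 0.0035). The CGRP genes were low, with Calcb at 0.777 FPKM on day 0 and lower from day 5 on, down to -2.03 on day 14 (adjusted p = 1.7e-06). Calca had 5 to 19 counts on day 0 and passed only on day 5 (-1.99, edgeR, adjusted p = 0.019), with 1 to 6 counts there. Calcr, with at most 13 counts in any library, was not tested.

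Of 7 genes for eIF2 alpha, its kinases and its phosphatase subunits, 6 were higher and none lower than day 0 on days 3 and 5, beside 31.8% and 29% of all genes higher. Eif2ak3 did not pass on either day. In this list the median log2 fold change on those days was 0.51 and 0.33. For days 7, 10, 12 and 14 the numbers higher were 5, 1, 3 and 4 and those lower 0, 1, 1 and 2, beside 25.6%, 23.5%, 21.7% and 28.2% of all genes higher and 24.8%, 26.9%, 25.6% and 34.5% lower. Without composition correction day 12 gave 5 and 0, and none was lower on day 10. Ppp1r15a (GADD34), which removes the phosphate from eIF2 alpha as part of a feedback loop, rose on day 3 (0.97 ± 0.08 SE, edgeR, adjusted p = 5.7e-11) and was lower on day 14 (-0.61, adjusted p = 5.5e-07). Its constitutive relative Ppp1r15b rose on day 3 as well (0.66, adjusted p = 4.6e-10). Eif2ak2, the kinase PKR that senses double-stranded RNA, rose on day 3 (0.96, adjusted p = 1.3e-11). Eif2ak1, the heme-regulated kinase, was higher on day 3 (0.31, adjusted p = 5.6e-06) and Eif2ak4, the amino acid sensor GCN2, on day 3 (0.39, adjusted p = 0.0018) and day 14 (0.53, adjusted p = 5.9e-05). Eif2ak3, the endoplasmic reticulum sensor PERK, had a difference of 0.00 on day 3 (adjusted p = 0.98) and was lower on day 14 (-0.69, adjusted p = 3.1e-06). Eif2s1, the gene of eIF2 alpha, was higher on day 3 (0.51, adjusted p = 1.2e-07) and day 14 (0.75, adjusted p = 1.1e-10).

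Among 7 other stress transcription factors and regulators, the numbers higher were 2, 4, 1, 2, 1 and 1 over the 6 wound days, and those lower 3, 1, 1, 2, 3 and 3, beside 21.7% to 31.8% and 24.8% to 34.8% of all genes. Without composition correction 2 were higher on days 7, 12 and 14. Cebpb, a C/EBP partner of ATF4, was the highest on days 3 and 14 (log2 fold change 1.73 ± 0.11 SE on day 3, edgeR, adjusted p = 6.7e-14, and 0.50 on day 14, adjusted p = 0.0002). Nupr1 was the lowest on both (-0.94, adjusted p = 0.00057, and -1.79, adjusted p = 1.2e-07), with day 0 counts spread from 2490 to 10544.

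In the list of serine, folate-linked and related amino acid enzymes, the numbers higher of 12 were 4, 4, 3, 3, 5 and 6 over the 6 wound days, and those lower 5, 5, 4, 3, 3 and 4, beside 21.7% to 31.8% and 24.8% to 34.8% of all genes. With upper quartile scaling, and also without composition correction, 5 were higher on day 10. Cbs, which makes cystathionine from homocysteine and serine, was the lowest gene on day 3 (log2 fold change -2.97 ± 0.11 SE, edgeR, adjusted p = 8.6e-19) and the highest on day 14 (2.26, adjusted p = 5e-17), with 79 to 108 counts on day 3 and 3580 to 4032 on day 14. This is the direction of Phgdh on both days, on a larger scale. The highest on day 3 was Mthfd1l, of mitochondrial folate metabolism (0.81, adjusted p = 0.0086), and the lowest on day 14 was Aldh1l2 (-1.89, adjusted p = 1.2e-05), whose day 0 counts ran from 256 to 1342.

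Of 10 amino acid transporters beside Slc7a11, the numbers higher were 4, 2, 1, 2, 5 and 5 over the 6 wound days, and those lower 5, 4, 3, 1, 3 and 2, beside the same shares of all genes. Without composition correction, 2 were higher on day 7. Slc38a1, a glutamine carrier, was the highest on day 3 (log2 fold change 1.08 ± 0.09 SE, edgeR, adjusted p = 2.7e-11), and Slc7a1, a carrier of cationic amino acids such as arginine, on day 14 (1.92, adjusted p = 1.7e-14). Slc6a9, a glycine carrier, was the lowest on day 14 (-0.78, adjusted p = 5.2e-07) and was also lower on day 3 (-1.21, adjusted p = 1.9e-10). The lowest on day 3, Slc7a3, had at most 16 counts in any day 0 library and 0 to 4 on day 3 (-2.40, adjusted p = 0.017).

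Genes of the cytosolic tRNA synthetases, which charge tRNAs with amino acids, were higher in 13 of 20 cases and lower in none on day 3, beside 31.8% and 34.8% of all genes, with a median log2 fold change of 0.22. Over days 5, 7, 10, 12 and 14 the numbers higher were 8, 3, 2, 7 and 15 and those lower 1, 4, 4, 1 and 0, with a median of 0.31 by day 14, when 28.2% and 34.5% of all genes were higher and lower. Without composition correction day 12 gave 17 and 0, and 1 gene was lower on day 3. Of all genes, 21.7% to 29% were higher and 24.8% to 30.6% lower on days 5 to 12. Aars was the highest on day 3 (0.51 ± 0.05 SE, edgeR, adjusted p = 7.2e-10) and Cars on day 14 (0.96, adjusted p = 4.4e-11). The lowest were Qars on day 3 (-0.12, adjusted p = 0.17) and Wars on day 14 (-0.10, adjusted p = 0.27).

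Of 20 chaperones and sensors of the endoplasmic reticulum, 18 were higher and 1 lower on day 3 (median log2 fold change 0.63), beside 31.8% and 34.8% of all genes, and 17 and 1 by day 5, beside 29% and 30.6%. Over days 7, 10, 12 and 14 the numbers higher were 9, 7, 1 and 3 and those lower 1, 5, 8 and 9, beside the shares of all genes given for these days with the eIF2 alpha list. Without composition correction day 12 gave 5 and 2, and day 14 gave 7 and 9. Pdia4, a disulfide isomerase, was the highest on day 3 (1.19 ± 0.06 SE, edgeR, adjusted p = 1.7e-15) and on day 14 (0.50, adjusted p = 8.7e-08). Herpud1, of endoplasmic reticulum-associated degradation, was the lowest on both (-0.84, adjusted p = 2.4e-09, and -0.98, adjusted p = 1.7e-10).

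Slc7a11 is also a target of NRF2, the regulator of the antioxidant response. Of 9 genes of that response, the numbers higher were 7, 7, 6, 6, 7 and 6 over the 6 wound days, and those lower 2, 2, 2, 2, 1 and 2, when 21.7% to 31.8% of all genes were higher and 24.8% to 34.8% lower. Gsr, glutathione reductase, was the highest on day 3 (log2 fold change 2.68 ± 0.08 SE, edgeR, adjusted p = 4.6e-21). Gclc, the catalytic subunit of the rate-limiting enzyme of glutathione synthesis, was lower on day 3 (-0.30, adjusted p = 0.00073) and the highest on day 14 (1.65, adjusted p = 2.4e-16). Nqo1, a quinone reductase, was the lowest on both days (-0.49, adjusted p = 0.00024, and -0.55, adjusted p = 5.6e-05).

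Among 4 secreted factors induced by cell stress, the numbers higher were 2, 3, 1, 2, 1 and 0 over the 6 wound days, and those lower 0, 1, 1, 0, 1 and 0, beside 21.7% to 31.8% and 24.8% to 34.8% of all genes. Without composition correction 1 was lower on day 3 and none on day 12. The largest change was that of Fgf21, a metabolic hormone, on day 5 (log2 fold change 3.15 ± 0.67 SE, edgeR, adjusted p = 0.00022), with 14 to 40 counts against 1 to 6 on day 0. The 4 libraries of day 5 met the filter on low counts by themselves, so the filter and this test share them. Gdf15, named after its values were seen, was higher on days 3, 5, 10 and 12 (0.96, 1.33, 1.24 and 1.11, adjusted p of at most 0.00262). Vegfa, the blood vessel growth factor, was the highest on day 3 (log2 fold change 1.1 ± 0.10 SE, edgeR, adjusted p = 3.4e-10). Fgf21 was the highest on day 14 (1.28, adjusted p = 0.14), and Stc2 the lowest on both days (-0.41, adjusted p = 0.051, and -0.38, adjusted p = 0.072). Chac2, the constitutive relative of Chac1, did not pass on any day, with differences between -0.23 and 0.00.

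**Figure D5:**
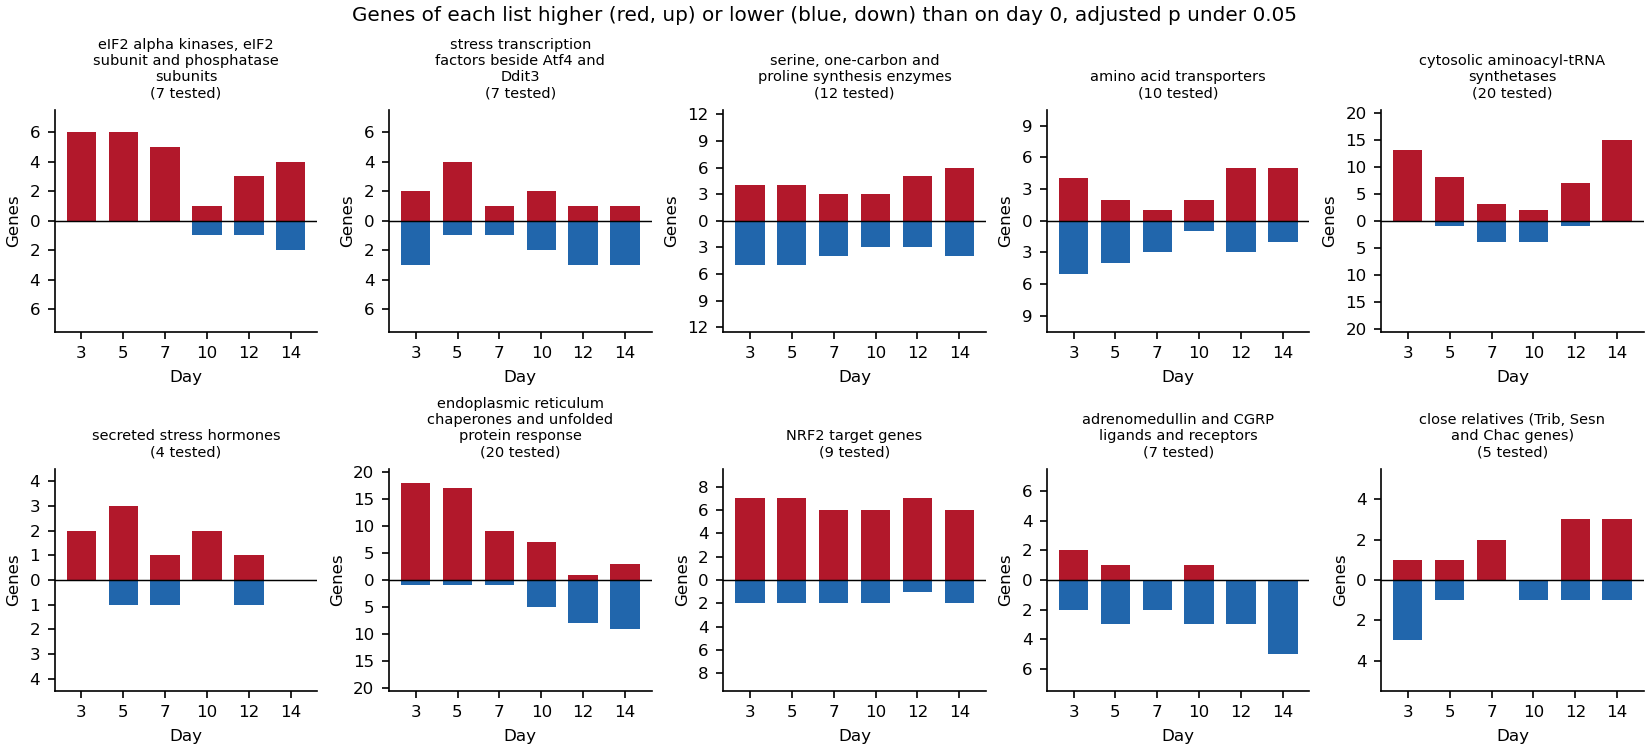
Number of genes (y axes) of 10 lists that were higher (red, upward) or lower (blue, downward) than on day 0 at an adjusted p under 0.05, on each of 6 wound days (x axes). The number tested stands above each panel. Endoplasmic reticulum genes are mostly higher on days 3 and 5 (18 and 17 of 20) and tRNA synthetase genes on days 3 and 14 (13 and 15 of 20).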

How the data were processed

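Total RNA of mouse skin was measured in 28 libraries, 4 on each of 7 days, grouped and numbered by their titles. The authors deposited raw read counts per gene symbol, and FPKM values that equal the count divided by a constant length per gene and by the library total. The submitters' processing notes name fastp, R 3.2.0 and build mm10. The aligner, annotation and strand setting are not given in the sources used here, so overlapping and antisense genes, and the Phgdh pseudogene, may share reads.

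Differences were tested with edgeR 4.0.16 under R 4.3.3 (TMM, filterByExpr on days, quasi-likelihood test, two-sided) in 1 fit of all 28 libraries with 21 residual degrees of freedom. Adjusted p follows Benjamini and Hochberg over 18107 genes, and a gene rose or fell at an adjusted p under 0.05. FPKM served to compare levels between genes and for limma 3.58.1. Log2 CPM used a prior count of 2. Adm2 ratios carry exact 95% counting intervals, and a count of 0 allows up to 3. Permutation tests of 4 against 4 libraries were exact (70 splits, smallest p = 0.0286), and correlations used permutations within days. None of the 42 pairs of libraries of the same day differed by less than the sampling noise. Same-numbered libraries of different days did not deviate together (0 of 24 correlations over 0.1). Gene positions are from GENCODE M21 and promoter sequences from RefSeq, GRCm38.p6.

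The 10 genes and the gene lists were chosen with earlier results of these data known. Named were all 10, all genes of 3 short lists (eIF2 alpha kinases and phosphatases, adrenomedullin and CGRP family, close relatives), in other lists the highest and lowest on days 3 and 14, and the 8 genes most like Adm2. Scripts were tested on simulated counts. Alternatives were DESeq2 1.42.0, other scalings and filters, fits of 8 libraries, a replicate block, limma on log2(FPKM + 1) or (FPKM + 0.1), and leaving out libraries. After seeing the data, leaving out day 0 replicates 1 and 4, or 2 and 3, was added.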

Additional observations from a re-analysis of the deposited data

Results flagged for a closer look

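In each group of 4 libraries the highest or lowest log2 CPM was compared with the others by Dixon's test, over the 10 genes and 7 days. Of 70 groups, 5 held a library that stood apart, where chance gives about 3.5. Adm2 on day 7 had a low replicate 1 at -1.82, with 9 counts, beside -0.91 to -0.83 and 19 to 20 counts in the others. On day 12 Adm2 had a high replicate 2 at -1.28, with 16 counts, beside -2.42 to -2.38 and 6 counts in each of the others. Without any 1 of the 8 libraries concerned, the rise of Adm2 from day 12 to 14 stayed between 1.42 and 2.15 on the log2 scale, with an adjusted p of at most 0.0202. Asns on day 3 had a high replicate 4 at 5.60, beside 5.49 to 5.51. Phgdh on day 0 had a high replicate 4 at 6.14, beside 5.98 to 6.01. Sesn2 on day 5 had a low replicate 4 at 4.36, beside 4.68 to 4.72, which is the library whose absence also ended the call of Slc7a11 between days 3 and 5.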

How the results depend on the processing

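Most results kept their direction and their side of the threshold. Of single-gene differences from day 0, 595 kept both, 34 changed sign, 56 lost their call and 17 gained one under settings other than leaving out 1 library, and 392, 13, 17 and 10 did so when 1 library was left out. Between wound days these numbers were 496, 9, 22 and 12, and 367, 12, 18 and 3. All 10 joint tests kept their call in every fit that gave a value for the gene. The cause of the changes was not tested. Low counts limit the values of Adm2. The coefficient of variation over the day 0 libraries was 23.1% to 42.7% for Asns, Trib3, Psat1, Chac1 and Slc7a11, whose comparisons with day 0 it limits, and 1.77% to 8.13% for Atf4, Ddit3, Phgdh and Sesn2.

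The number of genes called on day 12, 6 in the reported fit, was 2 without composition correction, with limma on log2(FPKM + 1) or log2(FPKM + 0.1) and in an edgeR fit of the 8 libraries alone, and 3 with limma on genes of mean FPKM of at least 1. On day 14 it was 4 rather than 7 in the fit of 8 libraries. From day 3 to 5 it was 2 rather than 4 with no filter, and 2 to 3 with 1 library left out, the lowest without day 5 replicate 1 or 4. The split of rising and falling genes from day 3 to 5, 1 and 3, became 0 and 3 with DESeq2 size factors. From day 10 to 12 it became 1 and 1, and from day 12 to 14 4 and 1, without composition correction.

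Signs changed only for differences that did not pass in the reported fit, apart from Psat1 on day 12. Ddit3 on day 7 became -0.0022 with upper quartile scaling, -0.0096 with DESeq2 size factors, -0.0098 with no filter, -0.0010 with 10 counts in every library, -0.0093 with DESeq2 and -0.030 in 8 libraries. Psat1 on day 10 became 0.00042 without composition correction, and 0.038 (pseudocount 1, both filters) and 0.040 (0.1) with limma. Psat1 on day 14 became 0.013 with upper quartile scaling, 0.088 without composition correction, 0.0010 with no filter, 0.123 (pseudocount 1, both filters) and 0.126 (0.1) with limma, and 0.032 in 8 libraries. On day 12, Atf4 and Sesn2 became 0.125 and 0.086 without composition correction, 0.123 and 0.072 with limma and a pseudocount of 1 under both filters, and 0.124 and 0.084 with 0.1. Trib3 from day 3 to 5 became -0.0031 with DESeq2 size factors and -0.0032 with DESeq2. Atf4 from day 10 to 12 became 0.047 without composition correction, 0.046 (pseudocount 1, both filters) and 0.047 (0.1) with limma. Chac1 from day 12 to 14 became 0.012 with upper quartile scaling, 0.0079 with DESeq2 size factors and 0.0079 with DESeq2.

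Without day 0 replicates 1 and 4, Psat1 became 0.31, 0.11 and 0.33 on days 10, 12 and 14, and Sesn2 0.030 on day 12. Without replicates 2 and 3, Atf4 became 0.022 and 0.014 on days 5 and 12, Trib3 0.027 on day 7, Sesn2 -0.039 on day 10 and Asns -0.069 on day 12.

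With 1 library left out, the differences from day 0 ranged from -0.056 to 0.022 for Atf4 on day 5, -0.023 to 0.031 for Ddit3 and -0.208 to 0.061 for Trib3 on day 7, -0.169 to 0.122 for Psat1 and -0.015 to 0.106 for Sesn2 on day 10, -0.096 to 0.0092 for Sesn2 on day 12 and -0.109 to 0.213 for Psat1 on day 14. From day 3 to 5 they ranged from -0.170 to 0.242 for Adm2, -0.083 to 0.033 for Trib3 and -0.133 to 0.0064 for Asns. Later ranges were -0.695 to 0.097 for Adm2 from day 10 to 12, and -0.155 to 0.039 for Trib3 and -0.126 to 0.083 for Chac1 from day 12 to 14.

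Within-day correlations with Adm2, all far from passing, became -0.12 for Chac1, -0.077 for Psat1 and -0.027 for Phgdh without the 2 farthest libraries, and -0.061 for Chac1, -0.053 for Psat1 and 0.033 for Slc7a11 on wound days alone. A replicate block left 5 genes called on day 12 and 3 from day 3 to 5, through Psat1 (adjusted p = 0.0586) and Ddit3 (adjusted p = 0.0567). It changed no other call, and since the labels give only a number, which did not make libraries deviate together (-0.070 to 0.053), it says nothing about those genes. Of the counts of listed genes, 27 of 360 moved by more than 1.5 times under other scalings.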
